A study of Rattus norvegicus with 12 samples.

Results

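MHC class II genes and the invariant chain were measured in single L5 dorsal root ganglia (DRG) of rats, with and without local inflammation of the ganglion. The group holds 8 genes, taken by name from the 7589 genes that had a probeset of their own among the 8260 core probesets of the array. They are the peptide-presenting chains RT1-Da, RT1-Db1, RT1-Ba and RT1-Bb, the editor chains RT1-DMa, RT1-DMb and RT1-DOb, and Cd74, the invariant chain. Each of the 8 had 1 probeset, and none was removed by a filter on low values, because none was applied. All rats were adult male Sprague Dawley. In the 6 LID (local inflammation of the DRG) rats, zymosan, a yeast preparation that activates the immune system, was placed on the L5 ganglion of one side (10 µl of 2 mg/ml, with incomplete Freund's adjuvant as the vehicle). The 6 sham rats had the incision and the exposure of the foramen without the injection, so zymosan and its vehicle cannot be told apart. Every ganglion was taken on post-operative day 3 and hybridized to an array of its own, so that the replicates are separate animals and their number limits the precision.

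A class II molecule is a pair of an alpha and a beta chain that carries a peptide from the endosome to the surface of an antigen-presenting cell, where CD4 T cells read it. RT1-Da and RT1-Db1 encode the chains of RT1-D, the rat counterpart of human HLA-DR, and RT1-Ba and RT1-Bb those of RT1-B, the counterpart of HLA-DQ. Cd74 fills the groove of a new class II molecule and guides it to the endosome, DM (RT1-DMa with RT1-DMb) then exchanges the remaining piece of Cd74 for a peptide, and DO (RT1-DOa with RT1-DOb) holds DM back. Macrophages, dendritic cells and B cells are the usual carriers of these molecules, and transcription of the genes depends on the coactivator CIITA, which is assembled on a promoter module of X and Y boxes.

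The stretch of promoter searched for this module is shown because most of the members held a match, and the members were not chosen by it. The letters searched were chosen after these sequences were seen. The windows are RefSeq sequence of the GRCr8 assembly, read 5′ to 3′ on the strand of each gene. For the first 6 genes the capitals mark a match to GNNACNG, searched as the core of the X box, and a match to GATTGG, searched as the Y box (an inverted CCAAT), and for Cd74 they mark CCAAT.
RT1-Da, chr20:4515328-4515374, plus strand: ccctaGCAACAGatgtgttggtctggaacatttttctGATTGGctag
RT1-Db1, chr20:4560234-4560279, minus strand: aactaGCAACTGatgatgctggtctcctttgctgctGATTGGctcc
RT1-Ba, chr20:4576976-4577022, plus strand: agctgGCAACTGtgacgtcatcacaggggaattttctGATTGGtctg
RT1-Bb, chr20:4604171-4604216, minus strand: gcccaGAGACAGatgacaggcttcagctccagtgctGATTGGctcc
RT1-DMa, chr20:4712391-4712437, minus strand: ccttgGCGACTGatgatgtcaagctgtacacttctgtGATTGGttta
RT1-DOb, chr20:4627598-4627641, minus strand: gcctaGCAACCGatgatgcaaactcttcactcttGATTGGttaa
Cd74, chr18:56526977-56527031, plus strand: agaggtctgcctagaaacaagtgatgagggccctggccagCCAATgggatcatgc

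GNNACNG (N is any base) followed by GATTGG after 10 to 30 bases was found in 6 of the 7 member promoters at hand, and no promoter window of RT1-DMb was used here. The gap between both matches ran from 22 to 25 bases, and the second match ended 38 to 78 bases before the annotated start of the gene. Over 33469 rat promoters of the same length, from 250 bases before to 50 bases after the start, 1.38% held the pair on either strand, 14.8% held GATTGG, 88.1% held GNNACNG, and 37.5% held ATTGG, which lies within GATTGG. In Cd74 the pair was not matched in this window, and a single CCAAT lay 184 bases before the start. Pairs in other letters, or with CCAAT in place of GATTGG, were not searched for. The miss therefore shows no absence of the module in Cd74. Because the letters were chosen with the member promoters in view, the count in members beside these shares is no test. A match is a description of letters and shows no bound factor.

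The values are log2 values that the authors summarized per gene, quantile normalized and centred on the median of the 12 arrays for each probeset. A value of 1 therefore means a doubling over the middle of the 12 ganglia for that gene, no level of expression is left, and levels of different genes cannot be compared. By the same construction, wherever the groups do not overlap, the lowest LID value and the highest sham value lie at equal distances from 0. The labelled tissue could not be checked by the level of its markers for this reason. Sham replicate 2 stood apart from the other arrays, with a median of 0.22 over 953 probesets of odorant, trace amine and vomeronasal receptors, against -0.08 to 0.07 in the other 11 arrays, so each call was also made without it. Fold changes are LID over sham with 95% confidence intervals, and a gene is called where limma gave a p under 0.05 after Benjamini-Hochberg adjustment across the 8260 probesets.

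All 8 genes were higher in LID ganglia, with increases of 1.57-fold (RT1-DOb) to 4.44-fold (RT1-Da). The peptide-presenting chains RT1-Da and RT1-Ba rose most, the DM beta chain RT1-DMb and the invariant chain Cd74 followed, and the DO beta chain rose least. The median log2 fold change of the 8 was 1.14, against -0.02 over all probesets, and 5 of the 8 rose more than 2-fold, as did 73 probesets called on the whole array. Over the whole array 19.4% of the probesets were called in either direction and 7.66% were called higher, and 2.14% were called and more than 1.5-fold higher, as all 8 members were. In 6 of the 8 genes every LID ganglion lay above every sham ganglion, a pattern found in 3.62% of all probesets. A ganglion is a mixture of cells, so that more cells of a type and more RNA per cell cannot be told apart.

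**Figure D1:**
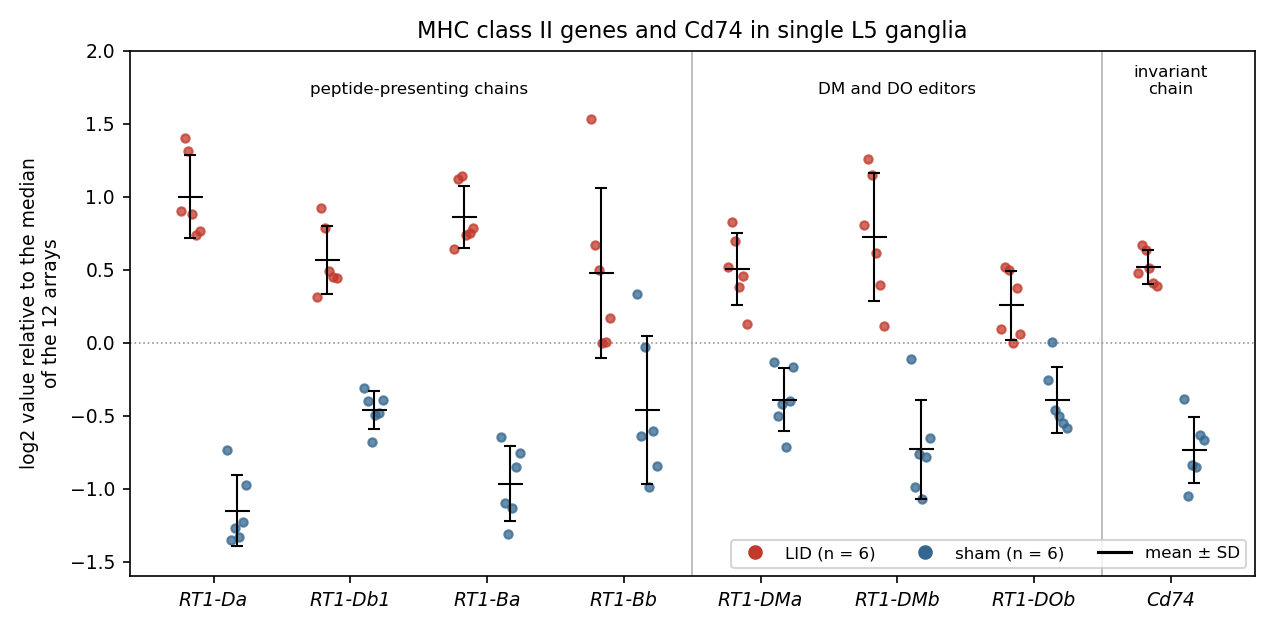
Values of the 8 genes in the 12 ganglia, in log2 units with the median of all arrays at 0 (vertical axis), with LID ganglia in red left of sham ganglia in blue, and bars for mean ± SD (n = 6 each). The groups are separate for all genes except RT1-Bb and RT1-DOb, and RT1-Da shows the widest distance between them.

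Among the peptide-presenting chains, RT1-Da, the alpha chain of RT1-D, ran from 0.74 over a median of 0.89 to 1.40 in LID ganglia and from -1.35 over -1.25 to -0.74 in sham ganglia. The lowest LID ganglion was thus 1.48 above the highest sham ganglion, the widest gap of the 8 genes. RT1-Da averaged 1.00 ± 0.28 in LID ganglia and -1.15 ± 0.24 in sham ganglia (SD, n = 6 each), a 4.44-fold increase (3.62 to 5.45, adjusted p = 1.95e-06 in limma) that ranked 7 of 8260 by log2 fold change. Its partner RT1-Db1, the beta chain, ran from 0.31 over 0.47 to 0.92 in LID ganglia and from -0.68 over -0.44 to -0.31 in sham ganglia. The groups were again separate, at less than the distance of the alpha chain. RT1-Db1 averaged 0.57 ± 0.23 in LID ganglia and -0.46 ± 0.13 in sham ganglia and was 2.04-fold higher (1.76 to 2.37, adjusted p = 3.07e-05 in limma). A second beta chain gene of RT1-D, RT1-Db2, had no probeset of its own, and whether its transcripts reached the probes of RT1-Db1 was not tested.

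RT1-Ba, the alpha chain of RT1-B, ran from 0.64 over 0.77 to 1.14 in LID ganglia and from -1.31 over -0.97 to -0.64 in sham ganglia. It averaged 0.86 ± 0.21 in LID ganglia and -0.97 ± 0.26 in sham ganglia, with no overlap, and was 3.55-fold higher (2.96 to 4.27, adjusted p = 2.40e-06 in limma). RT1-Bb, the beta chain of RT1-B, was the most scattered member. Its LID ganglia ran from -0.0046 over 0.33 to 1.53 and its sham ganglia from -0.99 over -0.62 to 0.33. The highest values came from replicate 1 of each group, 1.53 in LID and 0.33 in sham, and 3 of the 6 LID ganglia lay above all sham ganglia. RT1-Bb averaged 0.48 ± 0.58 in LID ganglia and -0.46 ± 0.51 in sham ganglia and was 1.92-fold higher (1.27 to 2.91, adjusted p = 0.0298 in limma). This call was lost on leaving out any one of 6 arrays (sham replicates 2, 4, 5 and 6 and LID replicates 2 and 3), with adjusted p from 0.0524 to 0.0696, and without LID replicate 1, the highest ganglion, it held at a log2 fold change of 0.73 (adjusted p = 0.0458). The other 7 genes were called under each array left out.

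All 3 editor chains were higher, the DM beta chain by most. RT1-DMa, the alpha chain of DM, ran from 0.13 over 0.49 to 0.83 in LID ganglia and from -0.71 over -0.41 to -0.13 in sham ganglia. It averaged 0.50 ± 0.25 in LID ganglia and -0.39 ± 0.22 in sham ganglia and was 1.86-fold higher (1.55 to 2.23, adjusted p = 0.000344 in limma). The groups did not overlap, but the lowest LID ganglion, replicate 6, was close to the highest sham ganglion, replicate 1. RT1-DMb, the beta chain of DM, ran from 0.11 over 0.71 to 1.26 in LID ganglia and from -1.07 over -0.77 to -0.11 in sham ganglia, with the same 2 ganglia nearest to each other. RT1-DMb averaged 0.72 ± 0.44 in LID ganglia and -0.73 ± 0.34 in sham ganglia and was 2.74-fold higher (2.03 to 3.69, adjusted p = 0.000387 in limma).

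RT1-DOb, the beta chain of the DM inhibitor DO, had the smallest increase of the 8. It ran from -0.0053 over 0.23 to 0.52 in LID ganglia and from -0.58 over -0.48 to 0.0053 in sham ganglia. The groups overlapped by a single pair, LID replicate 4 below sham replicate 2, the array that stood apart, and 5 LID ganglia lay above all sham ganglia. RT1-DOb averaged 0.26 ± 0.23 in LID ganglia and -0.39 ± 0.23 in sham ganglia and was 1.57-fold higher (1.31 to 1.87, adjusted p = 0.00243 in limma). Without sham replicate 2 the log2 fold change was 0.73 in place of 0.65. Its partner in DO, RT1-DOa, is no member but bears on it directly: it ran from -0.11 over 0.04 to 0.29 in LID ganglia and from -0.23 over -0.08 to 0.28 in sham ganglia, with wide overlap. The log2 fold change of RT1-DOa was 0.07 (-0.13 to 0.28) and was not called (adjusted p = 0.694 in limma). The increase of RT1-DOb exceeded that of RT1-DOa by 0.57 on the log2 scale (0.36 to 0.79, exact two-sided permutation test, p = 0.00216, the smallest possible with 6 against 6), a comparison chosen after the values were seen. Within each ganglion, RT1-DOb minus RT1-DOa ran from -0.02 to 0.46 in LID ganglia and from -0.54 to -0.20 in sham ganglia, so that these differences were separate in every ganglion.

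Cd74, the invariant chain, was the most uniform of the 8 in LID ganglia, with values from 0.39 over 0.50 to 0.67, against -1.05 over -0.75 to -0.39 in sham ganglia. All LID ganglia lay above all sham ganglia. Cd74 averaged 0.52 ± 0.12 in LID ganglia and -0.74 ± 0.23 in sham ganglia and was 2.38-fold higher (2.06 to 2.75, adjusted p = 8.08e-06 in limma). By group of roles, all 4 presenting chains were called higher, with a median log2 fold change of 1.43, all 3 editors with a median of 0.89, and Cd74 with 1.25, and 3 of the chains, 2 of the editors and Cd74 had groups that did not overlap.

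Whether the members differed in how much they rose was tested on the difference between both genes within each ganglion, with an exact two-sided permutation test over the ganglia. All 28 pairs were compared, the p-values were adjusted over the 28, and 16 pairs differed at an adjusted p under 0.05. A difference here is that between the log2 fold changes, and differing responses of the probes of both genes were not tested. Within RT1-D, the alpha chain rose more than the beta chain by 1.12 (0.92 to 1.33, exact permutation test, adjusted p = 0.00606, the smallest the design allows for 28 pairs in which this many reach it). Within RT1-B, the alpha chain had the larger increase by 0.89, with a wide interval of 0.14 to 1.64, and the difference missed the threshold (exact permutation test, adjusted p = 0.0535). It was 1.14 and past the threshold without LID replicate 1, whose RT1-Bb value was far above the others (exact permutation test, adjusted p = 0.0101), and it passed without sham replicate 6 as well (adjusted p = 0.0357). Within DM the order was the reverse, the beta chain rising more than the alpha chain by 0.56 (0.30 to 0.82, exact permutation test, adjusted p = 0.0121).

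Between the presenting molecules, RT1-Da rose more than RT1-Ba by 0.32 (0.14 to 0.50, exact permutation test, adjusted p = 0.0121). Against Cd74, RT1-Da rose more by 0.90 (0.71 to 1.09) and RT1-Ba by 0.58 (0.39 to 0.76), both at an adjusted p of 0.00606 in the exact permutation test. On the array, both alpha chains thus had larger fold changes than the invariant chain that accompanies them. For other genes the paper found a much wider range of fold changes by qPCR than on the array. It lists no qPCR values for these members. The differences of the beta chains from Cd74 missed the threshold: the increase of Cd74 exceeded that of RT1-Db1 by 0.23 (-0.00 to 0.46, exact permutation test, adjusted p = 0.0572) and that of RT1-Bb by 0.31 (-0.33 to 0.96, adjusted p = 0.335). The difference of Cd74 from RT1-Db1 passed without sham replicate 1 or without LID replicate 2, at 0.27 each (exact permutation test, adjusted p = 0.0250).

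Among the editors, Cd74 rose more than RT1-DMa by 0.36 (0.16 to 0.56, exact permutation test, adjusted p = 0.0101) and more than RT1-DOb by 0.61 (0.23 to 0.98, adjusted p = 0.00606). RT1-DMb and Cd74 did not differ detectably, with 0.20 more for RT1-DMb (-0.14 to 0.54, exact permutation test, adjusted p = 0.273). RT1-DMb also rose more than RT1-DOb, by 0.80 (0.33 to 1.28, exact permutation test, adjusted p = 0.0121), whereas RT1-DMa and RT1-DOb differed by 0.25 (-0.08 to 0.57, adjusted p = 0.157). RT1-Da exceeded RT1-DMa by 1.26, RT1-DMb by 0.70 and RT1-DOb by 1.5, and RT1-Ba exceeded RT1-DMa by 0.94 and RT1-DOb by 1.18, each with an adjusted p of 0.00606 in the exact permutation test. The interval for RT1-Ba over RT1-DMb, 0.38, ran from 0.01 to 0.74, and this pair did not pass (exact permutation test, adjusted p = 0.0727). It passed without LID replicate 1 (adjusted p = 0.0351) or without LID replicate 2 (0.0471). In the order of the increases with all 12 arrays, RT1-Da and RT1-Ba were the one pair of neighbours that passed. Of the other neighbours, RT1-DMb and Cd74, RT1-Db1 and RT1-Bb, and RT1-Bb and RT1-DMa passed under no array left out, whereas RT1-DMa and RT1-DOb passed without sham replicate 6 (exact permutation test, adjusted p = 0.0438).

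**Figure D2:**
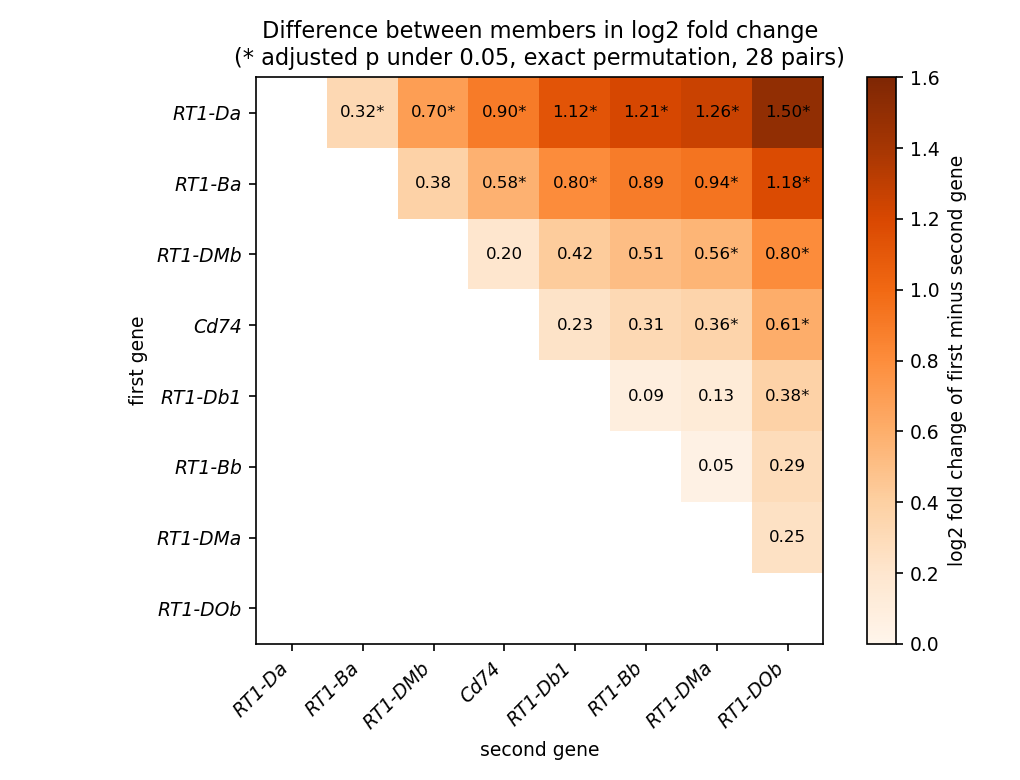
Difference between the log2 fold changes (LID minus sham) of each pair of members, the gene of the row minus that of the column, with genes in the order of their increase and a star for an adjusted p under 0.05 in the exact permutation test over 28 pairs. The stars fill the row of RT1-Da, and no neighbours in the order have one apart from RT1-Da and RT1-Ba.

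The highest ganglion of a group was the same for most of the 8 genes, and the lowest was not. LID replicate 2 was the highest LID ganglion for 6 of the 8 and among the highest 2 for all 8, and LID replicate 3 was among the highest 2 for 7. LID replicate 1, the highest for RT1-Bb, was the lowest for RT1-Db1 and RT1-Ba, and LID replicate 6 was the lowest for RT1-DMa, RT1-DMb and Cd74. In the sham group, replicate 1 was the highest ganglion for 7 of the 8, the exception being RT1-DOb, where replicate 2 was highest. The mean of the 4 presenting chains ran from 0.49 to 1.03 in LID ganglia and from -0.99 to -0.34 in sham ganglia, and that of the 3 editors from 0.10 to 0.87 in LID ganglia and from -0.76 to -0.17 in sham ganglia.

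**Figure D3:**
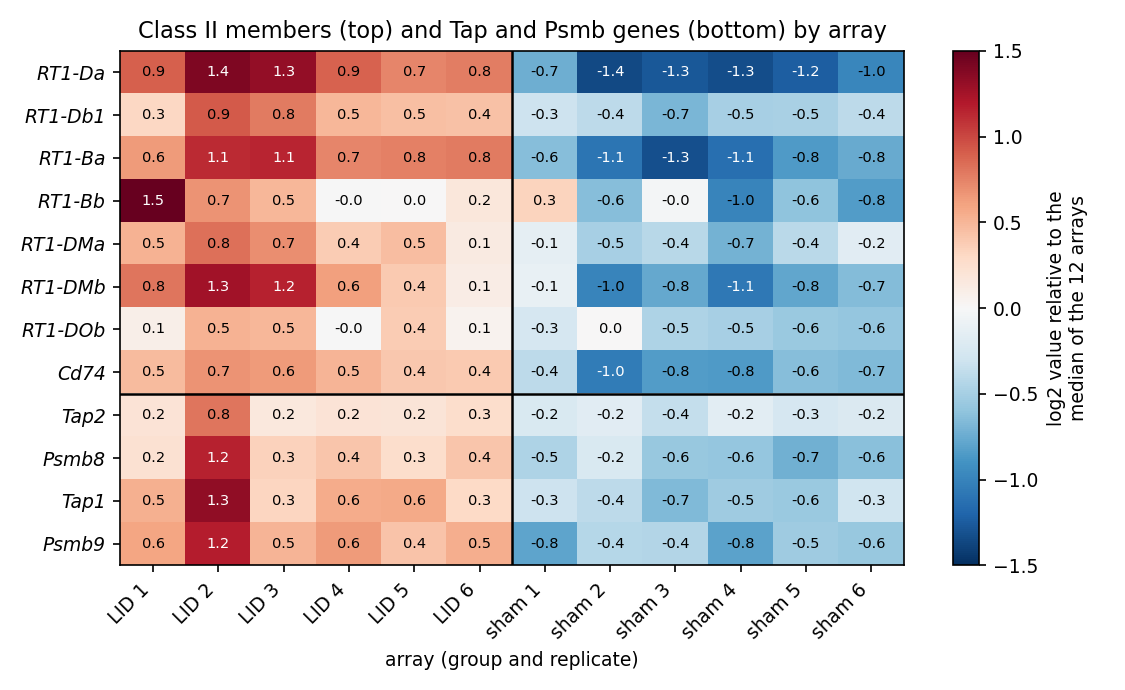
Values of the 8 members (upper rows) and of the 4 Tap and Psmb genes that lie among them (lower rows) in each ganglion, LID replicates left of sham replicates, in log2 units with the median of all arrays at 0 (colour scale and printed values). LID 2 holds the darkest red in most rows, and sham 1 the palest blue in most member rows.

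Genes listed as macrophage markers moved with the members. Of 12 listed markers, 8 had a probeset of their own and all 8 were called higher, with a median log2 fold change of 1.24, among them Lyz2, which encodes lysozyme (2.82-fold, 2.22 to 3.58), Mpeg1, the pore-forming perforin-2 (2.72-fold, 1.94 to 3.81), the leukocyte phosphatase Ptprc (2.47-fold, 1.91 to 3.20) and the integrin subunit Itgam (2.44-fold, 1.82 to 3.28). Their mean ran from 0.25 to 0.89 in LID ganglia, highest in replicate 2 (0.89) and lowest in replicate 6 (0.25), and from -0.92 to -0.15 in sham ganglia, highest in replicate 1 (-0.15). LID replicate 2 and sham replicate 1 were also the highest ganglia of their groups for most of the class II genes, and LID replicate 6 was the lowest for 3 of the 8. The same 2 ganglia were not highest for macrophage markers alone. They were also highest for the mean of the interferon gamma pathway genes listed below (0.60 and -0.12). The means of the class II regulators (0.13 and -0.0025) and of the glial genes (0.10 and -0.0069) shared this, and those of the other related lists did not. The part of macrophage number in the class II increase was not tested. Cd68, Csf1r, Cd163 and Mrc1 had no probeset of their own. The 8 that were measured include the leukocyte gene Ptprc, and whether they rose in macrophages or in other leukocytes was not tested. Of all probesets on the array, 7.66% were called higher.

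Markers of the other usual class II carriers were sparse on the array. Of 8 dendritic cell markers only Ccr7 (log2 fold change 0.12) and Batf3 (0.07) were measured alone, and of 7 B cell markers only Cd79b (0.20, adjusted p = 0.181 in limma). None of these was called with all 12 arrays, and Cd79b passed without sham replicate 2 (adjusted p = 0.0249). Of 10 neuronal genes 9 were measured and none was called, with a median of -0.01. The synaptic gene Snap25 (-0.19, adjusted p = 0.0858 in limma) passed as lower without sham replicate 2 (adjusted p = 0.0468) or without LID replicate 6 (0.0461). Of 9 genes of satellite glia and Schwann cells 6 were measured, on 7 probesets: Gfap, an intermediate filament of reactive glia, was 2.49-fold higher (2.09 to 2.98), the potassium channel Kcnj10 was lower (-0.42, adjusted p = 0.000605 in limma), and the other 5 probesets did not pass. None of the 5 endothelial markers listed had a probeset of its own.

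Among the transcriptional regulators of the class II promoter, the coactivator Ciita rose. Of 8 listed regulators 6 were measured, 1 was called higher and 1 lower (19.4% of all probesets were called in either direction), and their median log2 fold change was 0.02. Ciita had 0.01 over 0.14 to 0.81 in LID ganglia and -0.54 over -0.51 to -0.01 in sham ganglia. Its groups were separate by a narrow gap, and it was 1.57-fold higher (1.28 to 1.91, adjusted p = 0.00460 in limma). Nfyc, a subunit of the factor that binds the Y box, was lower in every LID ganglion (-0.21 to -0.02) than in any sham ganglion (0.02 to 0.51), with a log2 fold change of -0.40 (adjusted p = 0.00402 in limma). The log2 fold changes of Rfxank (-0.13), Nfya (-0.07), Nfyb (0.12) and Creb1 (0.23) did not pass with all 12 arrays, Nfyb passed without sham replicate 2 (adjusted p = 0.0481), and Rfx5 and Rfxap had no probeset of their own.

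Interferon gamma, a cytokine that induces Ciita, had a log2 fold change of 0.16 for its own gene Ifng, with -0.11 to 0.33 in LID ganglia and -0.19 to 0.21 in sham ganglia, and was not called (adjusted p = 0.236 in limma). Of its 7 measured pathway genes, of 9 listed, 5 were called higher (7.66% of all probesets were), with a median over the 7 of 0.47. The transcription factors Irf8 (2.26-fold, 1.74 to 2.93) and Irf1 (2.17-fold, 1.70 to 2.76) rose most, followed by the kinase Jak2 (1.43-fold, 1.29 to 1.59). Socs1 (1.38-fold, adjusted p = 0.0313) and the receptor chain Ifngr1 (1.22-fold, adjusted p = 0.0373) passed in limma by less. Socs1 was lost without any one of 5 arrays (sham replicates 3, 4, 5 and 6 and LID replicate 1, adjusted p up to 0.0662) and Ifngr1 without any one of 7 (sham replicates 1 and 4 and LID replicates 1, 3, 4, 5 and 6, adjusted p up to 0.0824).

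Among the endosomal genes that process Cd74 and antigens, cathepsin S stood out by its increase. Of 11 listed genes 8 were measured, 2 were called higher and 1 lower (19.4% of all probesets were called in either direction), and the median was 0.09. Ctss, cathepsin S, which in mouse trims the invariant chain in antigen-presenting cells, was 2.57-fold higher (1.96 to 3.36, adjusted p = 0.000294 in limma), with 0.29 to 0.99 in LID ganglia and -1.27 to -0.29 in sham ganglia. Its increase stood beside that of Cd74, at 2.38-fold. Ctsc, cathepsin C, was 1.36-fold higher (1.16 to 1.59), and Ctsl, cathepsin L, which does the same trimming in mouse thymic epithelium, was lower (-0.24, adjusted p = 0.0180 in limma).

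On the side of the T cell, none of the 5 measured genes of CD4 T cell recognition, of 8 listed, was called with all 12 arrays, and their median was 0.09. The count was 0 to 2 under the alternatives. The coreceptor Cd4 had a log2 fold change of 0.39 (adjusted p = 0.0576 in limma), which passed without any one of 4 arrays (sham replicates 1 and 5 and LID replicates 4 and 6, adjusted p down to 0.0378). Which cells of the ganglion held the Cd4 transcript was not tested. Cd5 had 0.24 (adjusted p = 0.0554) and passed without sham replicate 1 or 2. Cd3d, a chain of the T cell receptor complex, had 0.06. Of 9 costimulation genes 4 were measured, and the ligands Cd80 (1.41-fold, 1.16 to 1.70) and Cd86 (1.27-fold, 1.11 to 1.46) were called higher, while their receptors Cd28 (0.12) and Ctla4 (-0.05) did not pass.

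Cd74 is also a surface receptor for the cytokine MIF, with Cd44, Cxcr2 and Cxcr4 as partners. Both probesets of Mif fell short of the test, with log2 fold changes of -0.12 and 0.12. Cd44 was 1.15-fold higher (1.06 to 1.24, adjusted p = 0.0177 in limma) and Cxcr2 1.31-fold higher (1.11 to 1.55, adjusted p = 0.0276), and the call of Cxcr2 was lost without any one of 5 arrays (sham replicates 4 and 5 and LID replicates 2, 3 and 5, adjusted p up to 0.0646). Cxcr4 had a log2 fold change of 0.01.

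**Figure D4:**
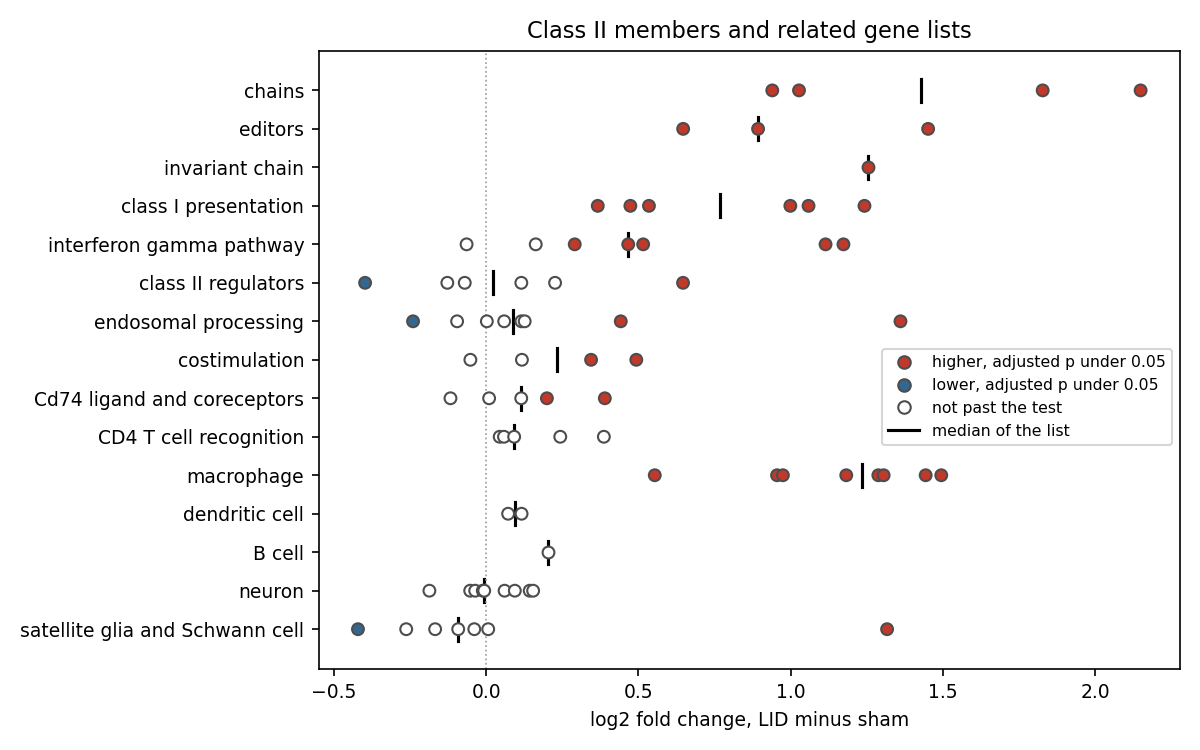
Log2 fold change (LID minus sham, horizontal axis) of each measured probeset of the 8 members and of the lists of related genes and cell type markers, one list per row, with a bar at the median of the list. The members, the class I presentation genes and the macrophage markers hold only genes that were called higher, and the neuron row lies around 0.

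All 7 RT1 members lie in one stretch of chromosome 20, whereas Cd74 is on chromosome 18. In the order of the RefSeq annotation, 12 protein-coding genes run from RT1-Da to RT1-DMa, and 11 of them were measured, the 7 members and 4 others. The 4 others, Tap2, Psmb8, Tap1 and Psmb9, serve class I presentation, as peptide transporter subunits and immunoproteasome subunits, and all 4 were called higher with a median of 1.03. Psmb9 was 2.37-fold higher (1.99 to 2.82), Tap1 2.08-fold (1.67 to 2.60), Psmb8 2.00-fold (1.62 to 2.47) and Tap2 1.45-fold (1.25 to 1.67), each with no overlap between the groups. No measured gene beside the stretch was called higher. The members, chosen with earlier results of these data known, set the ends of the stretch. The contrast of inside with outside is therefore no test. Btnl3, before RT1-Da, had a log2 fold change of -0.02 (adjusted p = 0.942 in limma). Beyond RT1-DMa, Brd2 was lower (-0.26, adjusted p = 0.00148), and RT1-DOa (0.07) and RT1-Ha (0.02) did not pass.

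**Figure D5:**
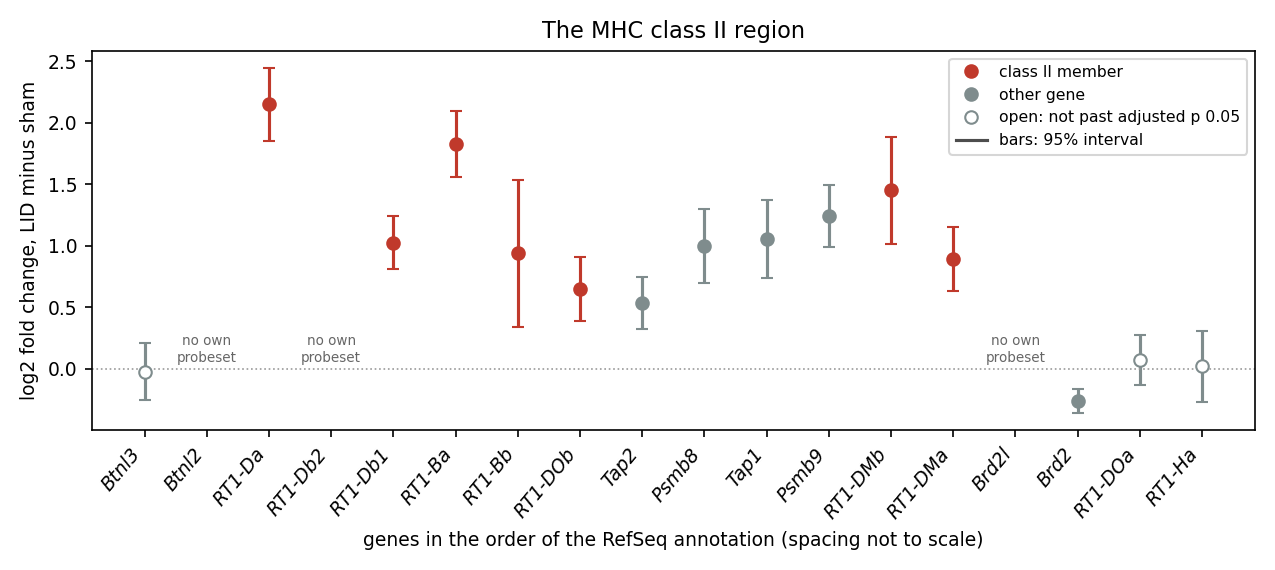
Log2 fold change (LID minus sham, vertical axis) with its 95% interval for the genes of the class II region, in the order of the annotation and not to scale, members in red and other genes in grey, with open circles for genes that did not pass. Every measured gene from RT1-Da to RT1-DMa lies above 0, between 0.53 and 2.15, and the 4 measured genes outside lie between -0.26 and 0.07.

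Of 11 listed genes of class I presentation, which include no class I heavy chain, 6 were measured, and all 6 were called higher with no overlap, B2m at 1.29-fold (1.14 to 1.46) and Erap1 at 1.39-fold (1.23 to 1.57) besides the Tap and Psmb genes. Their median log2 fold change was 0.77. Of all probesets, 7.66% were called higher and 3.62% had every LID ganglion above every sham ganglion. In the Tap and Psmb genes LID replicate 2 stood above the other LID ganglia. Psmb8 was 1.15 in LID replicate 2 and 0.23 to 0.42 in the other 5 LID ganglia, whereas Cd74 was 0.67 in LID replicate 2 and 0.64 in LID replicate 3. Without LID replicate 2 all 4 were still called, with log2 fold changes of 1.14 for Psmb9, 0.91 for Tap1, 0.86 for Psmb8 and 0.44 for Tap2.

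Outside the group, the genes most like each member over the 12 ganglia were found by the smallest root mean square difference of the log2 values. This distance includes the difference between LID and sham ganglia, so that a gene with a like fold change comes near. The candidates were probesets with 1 symbol, without those of the members. For RT1-Da they were Gbp2 (0.248), Cybb (0.325) and Fcgr2b (0.328), and for RT1-Ba they were Gbp2 (0.247), Lyz2 (0.268) and Chi3l1 (0.276). Among these candidates the interferon-induced GTPase Gbp2 thus came first for both alpha chains of the presenting molecules. Its log2 fold change was 1.92, beside 2.15 for RT1-Da and 1.83 for RT1-Ba. The beta chain RT1-Db1 lay nearest to Slc6a6 (0.134), Pla2g4a (0.143) and Tgm2 (0.148), and RT1-Bb to C1qa (0.377), C1qb (0.404) and Fcgr3a (0.408), the largest distances of any member. RT1-DMa lay nearest to Pla2g4a (0.0786), Adgre5 (0.0843) and Slc15a3 (0.111). RT1-DMb lay nearest to C1qa (0.153), Mpeg1 (0.196) and Ctss (0.218). RT1-DOb lay nearest to Ciita (0.141), Pycard (0.144) and Aif1 (0.164), and Cd74 to C1s (0.161), Cp (0.180) and Ctss (0.192). Distances between members were not ranked, and shared regulation of near genes was not tested.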

How the data were processed

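Total RNA of 12 single ganglia, isolated with either of 2 column kits (the sources do not say which sample had which), was hybridized to 12 Affymetrix rat exon arrays. The deposited values are log2 values that the authors summarized per gene with RMA in GeneSpring from core probesets, quantile normalized and set relative to the median of all samples; every probeset has a median of 0 over the arrays. The labels give the genome build rn4, and no coordinates of that build were used. Of 8260 probesets, 7603 carried 1 symbol, 409 several and 248 none; only probesets with 1 symbol were named, and 7584 of them matched the RefSeq table of GRCr8 by gene ID, which gave current symbols and gene order.

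For each probeset a linear model of LID minus sham was fitted in limma (version 3.58.1, R version 4.3.3) with variances moderated by empirical Bayes. The p-values were two-sided and adjusted by Benjamini-Hochberg across the whole table, and the steps were tested on simulated data. Pairs of members were compared with an exact permutation test over all 924 assignments of the arrays, with intervals from the pooled spread, in Python 3.11.15 with numpy 2.4.6, pandas 2.3.3 and scipy 1.17.1. Figures were drawn with matplotlib 3.10.9. Genes were named if they were members, if they passed the test in a list (up to 4 a list) or if a sentence turned on them. Genes between the outermost RT1 members and the 3 genes outside the group nearest to each member were named as well. Genes of lists that did not pass and genes outside the RT1 stretch were named after their values were seen. The members and lists were chosen with earlier results of these data known, and the motif letters after the promoter sequences were seen. Alternatives were robust and no moderation, array medians subtracted, array weights, a receptor covariate, other adjustments, a replicate block and arrays left out. The columns carry no batch or scan date.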

Additional observations from a re-analysis of the deposited data

Results flagged for a closer look

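In groups of 6 ganglia, a value was singled out where the gap to its nearest neighbour, divided by the range of the group, was above the 95% critical value of Dixon's test. Among 160 groups of values, of 78 genes, 15 such values were found, and chance alone gives about 1 in 20. None of them belonged to the 8 members.

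In LID replicate 2, the transporter and immunoproteasome genes stood above the other 5 LID ganglia: Tap1 was at 1.33 against 0.30 to 0.57, Tap2 at 0.803 against 0.16 to 0.27, Psmb8 at 1.15 against 0.23 to 0.42 and Psmb9 at 1.17 against 0.42 to 0.64. In the same ganglion Irf1 was at 1.55 against 0.34 to 0.74 and Socs1 at 0.927 against -0.0041 to 0.30. Gfap was high in LID replicate 1, at 0.818 against 0.38 to 0.54 in the other LID ganglia.

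Sham replicate 2, the array that stood apart, was low for Creb1 (-0.935 against -0.12 to 0.13 in the other sham ganglia), Ifngr1 (-0.575 against -0.13 to -0.01) and Jak2 (-0.507 against -0.26 to -0.15). It was high for Rfxank (0.248 against -0.0072 to 0.08), Ctla4 (0.406 against -0.10 to 0.07) and Mif (0.378 against -0.05 to 0.07). The macrophage gene Mpeg1 was high in sham replicate 1, at 0.0831 against -1.21 to -0.95, and Cd86 was low in sham replicate 4, at -0.464 against -0.13 to 2.9e-05.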

How the results depend on the processing

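Of 168 values of the 8 members under 21 alternatives, 159 kept their direction and their side of the threshold and none changed direction. The other 9 were calls of RT1-Bb that were lost, namely those given for single arrays, without moderation (adjusted p = 0.0668), without sham replicate 2 and LID replicate 2 together (0.0974) and with Benjamini-Yekutieli adjustment (0.286), so that 7 or 8 members were called throughout. Leaving out single arrays gave 7 to 8 members, 1261 to 1646 probesets in all and 16 to 19 pairs of members. The Benjamini-Yekutieli adjustment, stricter by construction, called 620 probesets in place of 1601. Same-numbered residuals correlated between -0.15 and 0.40, and only in replicate 4 (0.37) was each ganglion the best match of the other. Pairing by replicate number was therefore not assumed, and this check cannot exclude it. With the replicate number as a block, 8 members, 1680 probesets and 18 pairs were called, and RT1-Bb had an adjusted p of 0.00135. The pair RT1-Da and RT1-Bb was not called without sham replicate 2 and LID replicate 2 (adjusted p = 0.0523), and RT1-DOb minus RT1-DOa ran from 0.52 to 0.62 over single arrays left out. The increase of Cd74 exceeded that of RT1-Db1 at an adjusted p of 0.0486 with the block and 0.0342 without sham replicate 2 and LID replicate 2, and RT1-Ba that of RT1-Bb at 0.0486 with the block. Among related genes that did not pass otherwise, array weights called Cd4, Cd5, Nfyb, Cd79b and 1 probeset of Mif higher and Snap25 and Rfxank lower, the receptor covariate called Cd5, Lag3, Nfyb and Ccr7 higher and Snap25 and Lgmn lower, the block called Cd4 and Cd5 higher and Snap25 lower, subtraction of array medians called Cd5 higher, and leaving out sham replicate 2 and LID replicate 2 called Cd5 and Cd79b higher (adjusted p from 0.00302 to 0.0497 over these calls). Without moderation Ifngr1, Socs1 and Cxcr2 were lost, and the Benjamini-Yekutieli adjustment lost these and Ctsl, Ctsc, Cd80, Cd86, Cd44 and B2m. Ifngr1 was also lost with array medians subtracted. The causes of these shifts were not tested. No level over background is left in the values, so that a weak probe signal could not be recognized.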

Other observations

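The array held 11 further genes of the RT1 complex with a probeset of their own, RT1-DOa and RT1-Ha included. Of these, 1 was called higher, RT1-T24-1 at 1.28-fold (adjusted p = 0.00971 in limma). RT1-CE16 had the largest log2 fold change of the 11, 0.78, but scattered from -0.19 to 2.01 in LID ganglia and from -0.72 to 0.76 in sham ganglia and was not called (adjusted p = 0.154).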
